A study of Mus musculus with 6 samples.

Results

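Collagens are the structural proteins of the extracellular matrix, and the genes described here are the mouse genes that encode their chains. They were taken by name: every gene of the deposited table whose mouse symbol is Col, a number, the letter a and a number was a member. This gave 44 collagen genes among 56691 genes, of which 11 encode fibrillar collagens, 6 encode the type IV chains of basement membranes and 27 belong to other families. The rule reads gene names and no measured value, although it was chosen with earlier results of these data known.

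RNA from the liver of pregnant mice fed a high-fructose diet (HFrD) was sequenced in 2 groups of 3 dams. KPF dams (replicates 1, 2 and 3) were h*Chrebp*-KO, that is *Chrebp* flox/flox mice that also carried 1 copy of Alb-Cre. WPF dams (replicates 2, 3 and 4) are labelled WT, and the study describes them as *Chrebp* flox/flox mice without Cre, so both groups would carry the floxed alleles. *Chrebp*, listed under its symbol *Mlxipl*, encodes a transcription factor that switches on genes of sugar and fat metabolism when glucose or fructose is plentiful. All dams were mated with *Chrebp* flox/flox males, received HFrD while pregnant and were sampled late in pregnancy. Their ages are not given in the sources used here. The albumin promoter drives Cre in hepatocytes, and the study describes the knockout as specific to them. The state of the gene in other liver cells cannot be read from these data.

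In the liver, collagen chains are made mainly by cells other than hepatocytes. Fibrillar chains such as those of types I and III are wound into a helix, secreted as procollagen, trimmed and joined into fibrils, and in a healthy liver they lie around portal tracts and in the capsule. Type IV chains form the sheet-like network of basement membranes around vessels and ducts. Other collagens bind to fibril surfaces, form beaded filaments, span the cell membrane or, as type XVIII does, carry heparan sulphate in basement membranes. Hepatic stellate cells and portal fibroblasts are the main known sources of fibrillar collagen in liver injury, whereas type XVIII is known to be made by hepatocytes as well.

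The libraries held 10694496 to 14496630 counted reads, and collagen genes took 712 to 1170 CPM, that is counts relative to the TMM-adjusted library total. *Mlxipl* was at 32.0, 126 and 152 TMM-scaled FPKM in KPF and at 178, 229 and 158 in WPF (log2 fold change -0.87, SE 0.52, adjusted p = 0.586 by edgeR). Every KPF library was lower than every WPF library, but KPF replicate 3 was close to WPF replicate 4, and the counts cover the whole gene and not the deleted exon alone. KPF replicate 2 stood apart, since 8 striated muscle markers summed to 2090 TMM-scaled FPKM there and to between 3.60 and 7.82 in the other libraries. The tests of collagen genes and of their pathway lists were therefore repeated without it. The labels do not say how the dams were housed or whether libraries were prepared together, so p-values measure the spread between these samples.

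The unit used throughout for a level is TMM-scaled FPKM: reads divided by the exonic length in kilobases and by the library total, as in FPKM, with the totals adjusted by edgeR's TMM factors. A gene was called higher or lower where edgeR's quasi-likelihood test gave an unadjusted p under 0.05 and the groups differed by at least 1.5-fold. Under this rule 5.62% of the 13884 genes tested were called higher in KPF and 4.05% were called lower. No gene, and so no collagen gene, reached an adjusted p under 0.05 by edgeR, where 1442 genes had an unadjusted p under 0.05. DESeq2 gave an adjusted p under 0.05 to 165 genes, 7 of them collagen genes.

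Of the 44 collagen genes, 28 had enough reads to be tested. In KPF, 10 of the 28 were called higher, where the rate over all genes was 5.62%, 3 were called lower, where it was 4.05%, and 15 were not called. The 10 were *Col1a1*, *Col1a2*, *Col3a1*, *Col4a3*, *Col4a4*, *Col6a1*, *Col6a2*, *Col6a5*, *Col14a1* and *Col23a1*, and the 3 were *Col5a3*, *Col11a2* and *Col18a1*. The filter takes a gene with enough reads in any 3 libraries, so a gene could enter through the group where it is high. *Col4a3*, *Col4a4*, *Col6a5* and *Col23a1*, with as few as 4, 6, 1 and 4 reads in a WPF library, entered through KPF. Their calls are thus not independent of the filter, which was the same for all genes. The median log2 fold change of the tested collagen genes was 0.65, compared with 0.02 for all genes tested. In 8 of the 28 every KPF library was above every WPF library, which was so for 7.45% of all genes tested, and in 3 every KPF library was below, against 8.05%. Without KPF replicate 2, 7 were called higher, against 4.77% of all genes, and 2 were called lower, against 4.2%. With library totals in place of the TMM factors, 8 were called higher, against 452 of 13884 genes, and 3 lower, against 817. Of all called genes 35.6% were then higher, compared with 58.1% with TMM. In bulk liver RNA, fewer cells of a type and less RNA in each cell cannot be told apart.

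**Figure D1:**
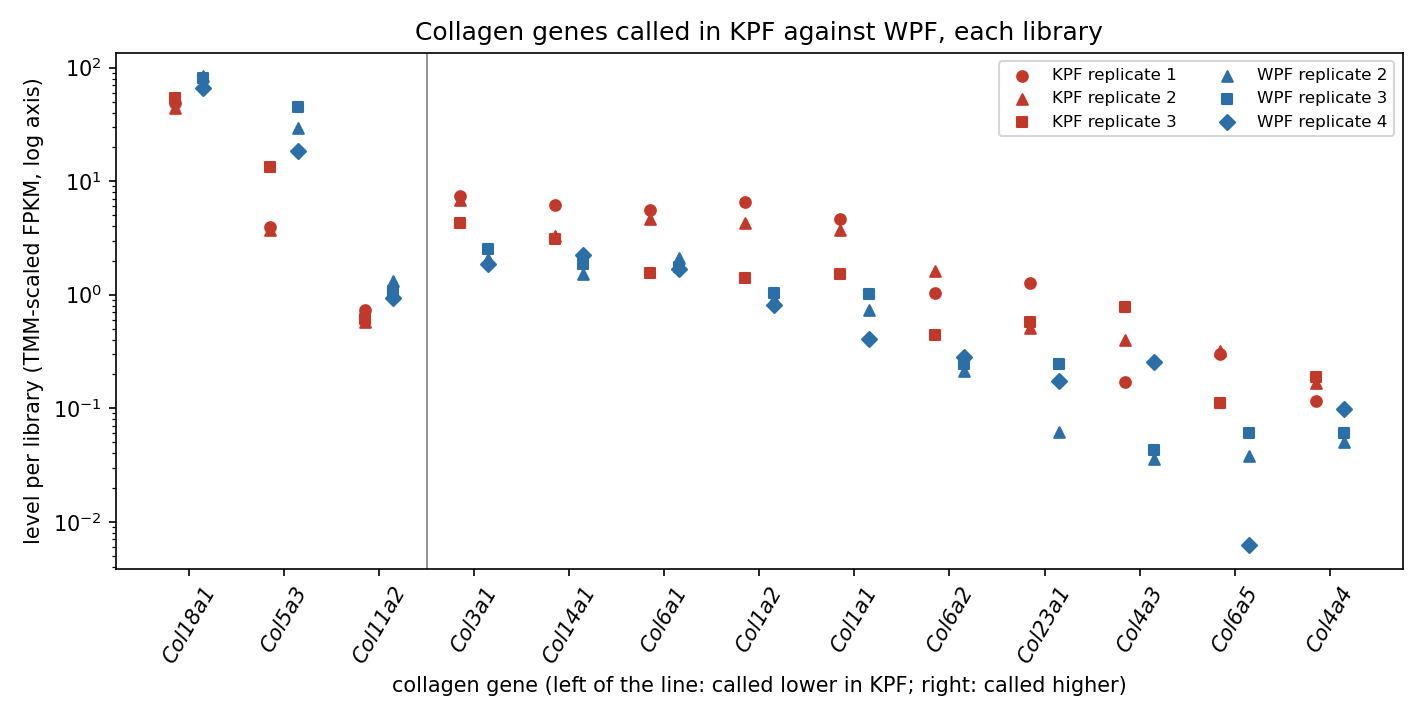
Level of each called collagen gene in each library, in TMM-scaled FPKM on a log axis, with KPF in red and WPF in blue, and one marker shape for each replicate. *Col18a1* and *Col5a3*, to the left, have the highest mean levels over all libraries and are lower in all 3 KPF libraries than in any WPF library. The genes to the right of the line are called higher and all lie under 10 TMM-scaled FPKM.

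Types I and III collagen RNA was higher in KPF. *Col1a1* (ENSMUSG00000001506, chr11:94827050-94843868) encodes the main chain of type I collagen, the chief protein of scar fibrils. Its level was 4.63, 3.70 and 1.53 TMM-scaled FPKM in KPF replicates 1, 2 and 3 and 0.728, 1.02 and 0.410 in WPF replicates 2, 3 and 4. The groups did not overlap, with KPF replicate 3 the lowest of its group and 1.53 set against a highest WPF value of 1.02. The change was 4.57-fold (log2 fold change 2.19, SE 0.47, p = 0.00149 and adjusted p = 0.375 by edgeR, exact permutation p = 0.1). Its partner chain in the type I helix is encoded by *Col1a2* (ENSMUSG00000029661, chr6:4504814-4541544). *Col1a2* was at 6.51, 4.30 and 1.40 TMM-scaled FPKM in KPF and at 0.918, 1.04 and 0.814 in WPF, or 4.41-fold higher (log2 fold change 2.14, SE 0.49, adjusted p = 0.375 by edgeR). *Col3a1* (ENSMUSG00000026043, chr1:45350698-45388866), which encodes the only chain of type III collagen, was at 7.47, 6.76 and 4.28 TMM-scaled FPKM in KPF and at 2.05, 2.55 and 1.86 in WPF. It was 2.86-fold higher (log2 fold change 1.52, SE 0.27, p = 0.000437 by edgeR, exact permutation p = 0.1), and its adjusted p of 0.353 was the smallest value over all genes tested, one that other genes shared. For all 3 genes KPF replicate 3 was the lowest KPF library and still lay above every WPF library. Exact permutation p-values here are two-sided and, with 3 dams in a group, cannot be smaller than 0.1, the value each of the 3 genes had.

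Coordinates of genes are those of the deposited table, which the submitters' processing notes place on GRCm39. The sequences shown are RefSeq promoters of another build, GRCm38.p6, and the positions given for them are not to be set beside those of the genes. They show the 250 bases before the annotated start of 2 genes of types I and III, called higher, and of *Col5a3* and *Col18a1*, called lower, so that genes called in opposite directions can be read side by side. Capitals mark matches on either strand to the CCAAT box (CCAAT), the TATA box (TATAAA), the GC box (GGGCGG) and the E-box (CACGTG), pairs of which make up carbohydrate response elements, and no marked matches overlap. Of 32851 such windows of all genes, 33.8% held CCAAT, 12.4% TATAAA, 32.7% GGGCGG and 6.02% CACGTG. The 2 genes called higher are *Col1a2*, at chr6:4505368-4505617 on the plus strand, and *Col3a1*, at chr1:45311288-45311537 on the plus strand.
Col1a2: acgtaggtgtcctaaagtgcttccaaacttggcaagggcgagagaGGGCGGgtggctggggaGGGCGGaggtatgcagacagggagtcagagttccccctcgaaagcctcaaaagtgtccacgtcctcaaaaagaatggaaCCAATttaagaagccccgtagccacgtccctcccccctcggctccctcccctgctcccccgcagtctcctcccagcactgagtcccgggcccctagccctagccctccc
Col3a1: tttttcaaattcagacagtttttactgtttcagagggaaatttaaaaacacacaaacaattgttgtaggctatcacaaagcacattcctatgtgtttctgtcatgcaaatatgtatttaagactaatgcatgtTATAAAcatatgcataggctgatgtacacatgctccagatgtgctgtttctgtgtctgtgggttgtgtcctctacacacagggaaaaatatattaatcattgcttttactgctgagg

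The window of *Col1a2* held 1 CCAAT match and 2 GC boxes, and that of *Col3a1* held 1 TATA box. Windows were matched for 35 of the 44 collagen genes, all but *Col1a1*, *Col2a1*, *Col4a3*, *Col5a2*, *Col9a3*, *Col12a1*, *Col14a1*, *Col22a1* and *Col26a1*. Over the 38 windows of the 35 genes, 13 held CCAAT, 22 held GGGCGG, 5 held TATAAA and 0 held CACGTG, which says only that these letters are not in these windows.

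*Col1a2* over *Col1a1* was 1.41, 1.16 and 0.912 in KPF and 1.26, 1.01 and 1.99 in WPF, as a ratio of TMM-scaled FPKM, and the groups overlapped. *Col3a1* over *Col1a1* was 1.61, 1.83 and 2.79 in KPF and 2.82, 2.49 and 4.53 in WPF, also with overlap. The 3 genes together took 16.7%, 15.6% and 7.48% of the summed collagen level in KPF and 2.62%, 2.85% and 2.87% in WPF. Without KPF replicate 2 the log2 fold changes were 2.09 for *Col1a1*, 2.09 for *Col1a2* and 1.44 for *Col3a1*, and all 3 were still called. With the replicate number as a block, which moved the folds of the type I genes by more than 1.5 times, *Col1a1* was 2.75-fold and *Col1a2* 2.53-fold higher. KPF replicate 1 and WPF replicate 4 have no same-numbered library in the other group, so the folds of the block fit rest on replicates 2 and 3.

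Of the 3 type V genes 1 was called, and it was lower in KPF. Type V collagen sits inside type I fibrils and limits their width, and the least common of its chains is encoded by *Col5a3* (ENSMUSG00000004098, chr9:20681346-20726363). *Col5a3* was at 3.91, 3.69 and 13.3 TMM-scaled FPKM in KPF and at 29.1, 44.7 and 18.3 in WPF (means 6.97 ± 5.48 and 30.7 ± 13.3, SD, n = 3). All 3 KPF values were under the lowest WPF value, and the 2 nearest were KPF replicate 3 and WPF replicate 4. The level in KPF was 0.227 of that in WPF (log2 fold change -2.14, SE 0.57, p = 0.00526 and adjusted p = 0.380 by edgeR, exact permutation p = 0.1). Its reads, 283, 286 and 953 in KPF and 2243, 4301 and 2132 in WPF, are many for a collagen gene here. Without KPF replicate 3 the level was 0.123 of WPF (log2 fold change -3.02). *Col5a1* and *Col5a2*, which encode the other chains of type V, were 1.56-fold and 1.66-fold of WPF in KPF and were not called (adjusted p = 0.546 and adjusted p = 0.620 by edgeR). *Col5a1* was called higher without KPF replicate 3 (log2 fold change 0.87), and *Col5a2* was called higher without WPF replicate 4 (1.38) and with the replicate block (1.03). *Col5a3* over *Col5a1* was 1.94, 2.72 and 14.6 in KPF and 41.5, 38.9 and 20.5 in WPF, as a ratio of TMM-scaled FPKM, again without overlap.

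The promoter window of *Col5a3*, at chr9:20815068-20815317 on the minus strand of GRCm38.p6, held 1 CCAAT match and 2 GC boxes, the same numbers as that of *Col1a2*, which was called in the opposite direction.
Col5a3: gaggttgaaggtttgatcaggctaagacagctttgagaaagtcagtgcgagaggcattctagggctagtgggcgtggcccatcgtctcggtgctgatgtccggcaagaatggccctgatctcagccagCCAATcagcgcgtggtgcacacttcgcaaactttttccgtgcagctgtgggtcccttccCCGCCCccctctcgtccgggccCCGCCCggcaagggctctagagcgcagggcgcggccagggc

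*Col11a2*, which encodes a chain of type XI collagen that is best known from cartilage, was at 0.726, 0.576 and 0.608 TMM-scaled FPKM in KPF and at 1.32, 1.07 and 0.927 in WPF. The groups did not overlap and the level in KPF was 0.576 of that in WPF (log2 fold change -0.80, SE 0.28, p = 0.0207 and adjusted p = 0.448 by edgeR, exact permutation p = 0.1). The call was lost without KPF replicate 2 (log2 fold change -0.74) and without WPF replicate 2 (-0.66). *Col27a1*, a fibrillar gene of cartilage with the second highest level of its class in WPF, was at 4.79, 3.82 and 2.71 TMM-scaled FPKM in KPF and at 5.20, 6.88 and 2.67 in WPF, and was not called (adjusted p = 0.734 by edgeR). The other 3 fibrillar genes, *Col2a1*, *Col11a1* and *Col24a1*, had at most 16 reads in any library and were not tested. Of the 8 tested fibrillar genes, then, 3 were called higher and 2 lower, with a median log2 fold change of 0.69.

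**Figure D2:**
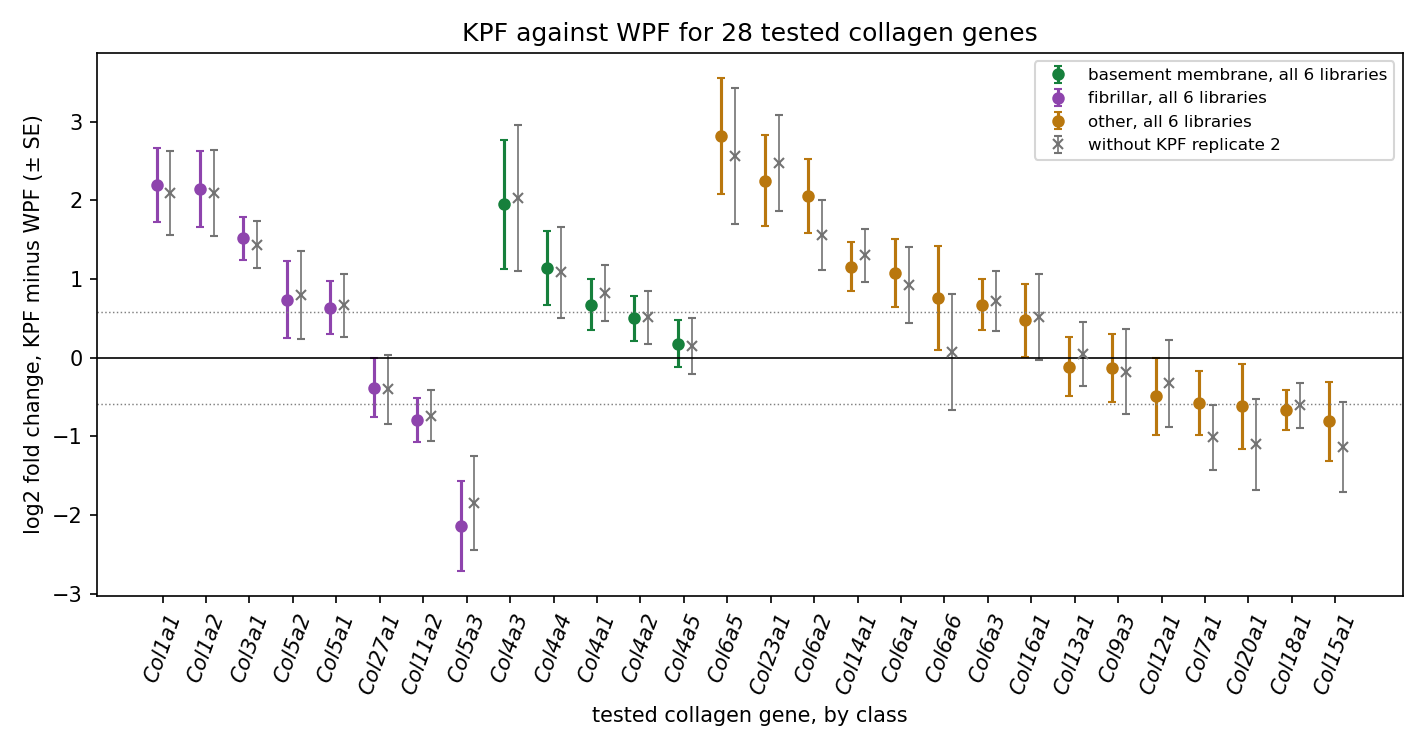
Log2 fold change, KPF minus WPF, with its SE for the 28 tested collagen genes, grouped as fibrillar, basement membrane and other, with coloured points for all 6 libraries and grey crosses for the fit without KPF replicate 2. Dotted lines mark 1.5-fold. The 5 tested basement membrane genes all lie above 0, whereas fibrillar genes run from -2.14 to 2.19 and the other collagens from -0.81 to 2.82.

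The basement membrane genes were positive throughout, but the major chains were not called. *Col4a1* and *Col4a2* encode the chains of the common type IV network. *Col4a1* was at 5.57, 2.85 and 2.58 TMM-scaled FPKM in KPF and at 2.01, 2.84 and 2.04 in WPF (log2 fold change 0.67, SE 0.33, adjusted p = 0.509 by edgeR). *Col4a2* was at 3.58, 2.72 and 2.12 TMM-scaled FPKM in KPF and at 1.51, 2.61 and 1.84 in WPF (log2 fold change 0.50, SE 0.29, adjusted p = 0.576 by edgeR). For both genes the groups overlapped, and KPF replicate 1 was the highest library. *Col4a1* was called without KPF replicate 3 (log2 fold change 0.86). The genes lie head to head on chromosome 8 (chr8:11248423-11362826 on the minus strand and chr8:11362805-11499287 on the plus strand), where their annotated ends overlap by 22 bases, and *Col4a2* over *Col4a1* was between 0.643 and 0.955 in all 6 libraries as a ratio of TMM-scaled FPKM.

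*Col4a3* and *Col4a4*, whose chains join with that of *Col4a5* in the filtration membrane of the kidney, are a second head-to-head pair, 71 bases apart. *Col4a3* was at 0.170, 0.397 and 0.782 TMM-scaled FPKM in KPF and at 0.0355, 0.0426 and 0.258 in WPF, where KPF replicate 1 was below WPF replicate 4. It was called higher by 3.86-fold (log2 fold change 1.95, SE 0.82, p = 0.0439 and adjusted p = 0.480 by edgeR, exact permutation p = 0.2). *Col4a4* was at 0.115, 0.166 and 0.188 TMM-scaled FPKM in KPF and at 0.050, 0.060 and 0.0991 in WPF, without overlap, and was called higher by 2.19-fold (log2 fold change 1.13, SE 0.47, p = 0.0412 and adjusted p = 0.480 by edgeR, exact permutation p = 0.1). These levels rest on few reads: 18, 45 and 82 for *Col4a3* and 13, 20 and 21 for *Col4a4* in KPF, and 4, 6 and 44 and then 6, 9 and 18 in WPF. Both calls were lost without any one of KPF replicates 2 and 3 and WPF replicates 2 and 3. The log2 fold changes then lay between 1.28 and 2.02 for *Col4a3* and between 0.95 and 1.08 for *Col4a4*. Without WPF replicate 4 *Col4a3* was 11.1-fold higher (log2 fold change 3.47), and with the replicate block 14.4-fold (3.85), and it was called in both. The calls of both genes were also lost with library totals and with limma on log2(FPKM + 1) or log2(FPKM + 0.1), and that of *Col4a4* with no filter and with DESeq2. *Col4a3* overlaps an antisense gene with 4 to 16 reads in the libraries, and the strand setting of the counting is not stated in the sources used here. *Col4a5* was at 0.588, 0.563 and 0.481 TMM-scaled FPKM in KPF and at 0.474, 0.516 and 0.452 in WPF and was not called (adjusted p = 0.849 by edgeR). *Col4a6* had at most 17 reads in a library and was not tested.

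Summed over its members, the basement membrane class was at 10.2, 6.75 and 6.20 TMM-scaled FPKM in KPF and at 4.08, 6.10 and 4.73 in WPF. The 3 KPF sums were above the 3 WPF sums, although by a small margin between KPF replicate 3 and WPF replicate 3. The fibrillar sum over the basement membrane sum was 3.06, 3.72 and 4.09 in KPF and 9.89, 9.65 and 5.68 in WPF, lower in every KPF library, since *Col5a3* is part of the fibrillar sum. Against *Col4a1*, single genes of types I and III went the other way. *Col3a1* over *Col4a1* was 1.34, 2.37 and 1.66 in KPF and 1.02, 0.900 and 0.909 in WPF, and *Col1a1* over *Col4a1* was 0.831, 1.30 and 0.594 in KPF and 0.361, 0.361 and 0.200 in WPF, both without overlap and both as ratios of TMM-scaled FPKM. 

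*Col18a1* (ENSMUSG00000001435, chr10:76888012-77002382) had the highest level of the 44 genes in every library. It encodes type XVIII collagen, a multiplexin of basement membranes from whose end endostatin is cleaved. Its level was 48.4, 43.8 and 53.7 TMM-scaled FPKM in KPF and 83.6, 80.9 and 66.4 in WPF (means 48.6 ± 4.97 and 76.9 ± 9.26, SD, n = 3). The groups did not overlap, and KPF was at 0.632 of WPF (log2 fold change -0.66, SE 0.26, p = 0.0313 and adjusted p = 0.466 by edgeR, exact permutation p = 0.1). The direction held without each library in turn, but the call was lost without KPF replicate 1 (log2 fold change -0.66), KPF replicate 2 (-0.60), WPF replicate 2 (-0.60) or WPF replicate 3 (-0.63). *Slc19a1* overlaps *Col18a1* on the opposite strand with 37 to 178 reads in a library, compared with 3493 to 8025 for *Col18a1* itself. *Col15a1*, the other multiplexin gene, was at 1.07, 2.13 and 1.41 TMM-scaled FPKM in KPF and at 1.98, 4.87 and 1.22 in WPF and was not called (adjusted p = 0.597 by edgeR), though it was called lower without WPF replicate 4 (log2 fold change -1.17).

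RefSeq places 2 starts in *Col18a1*, both on the minus strand of GRCm38.p6, at chr10:77166531-77166780 for the first and chr10:77113706-77113955 for the second. The gene-level counts do not tell transcripts from these starts apart. The first window held 1 CCAAT match and 3 GC boxes, and the second held no match to the motifs searched.
Col18a1 start 1: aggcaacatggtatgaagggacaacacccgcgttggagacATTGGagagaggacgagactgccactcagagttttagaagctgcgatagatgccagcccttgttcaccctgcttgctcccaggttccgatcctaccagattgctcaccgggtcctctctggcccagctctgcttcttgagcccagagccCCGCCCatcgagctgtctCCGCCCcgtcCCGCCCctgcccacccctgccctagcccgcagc
Col18a1 start 2: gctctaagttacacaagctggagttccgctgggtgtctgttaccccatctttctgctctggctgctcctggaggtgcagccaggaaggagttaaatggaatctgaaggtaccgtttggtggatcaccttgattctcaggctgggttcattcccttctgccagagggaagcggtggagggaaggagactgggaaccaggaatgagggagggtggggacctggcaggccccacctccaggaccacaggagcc

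Type VI chains form the beaded filaments that link cells to the matrix in most connective tissues and around muscle fibres. *Col6a1* was at 5.52, 4.64 and 1.54 TMM-scaled FPKM in KPF and at 2.12, 1.75 and 1.69 in WPF, with KPF replicate 3 below all WPF libraries (log2 fold change 1.08, SE 0.43, p = 0.0350 and adjusted p = 0.469 by edgeR, exact permutation p = 0.4). *Col6a2* was at 1.03, 1.62 and 0.445 TMM-scaled FPKM in KPF and at 0.212, 0.247 and 0.281 in WPF, or 4.15-fold higher without overlap (log2 fold change 2.05, SE 0.47, p = 0.00218 and adjusted p = 0.375 by edgeR, exact permutation p = 0.1). *Col6a5* was at 0.300, 0.318 and 0.111 TMM-scaled FPKM in KPF and at 0.0376, 0.0602 and 0.00621 in WPF, or 7.05-fold higher (log2 fold change 2.82, SE 0.74, p = 0.00485 and adjusted p = 0.380 by edgeR, exact permutation p = 0.1), on 30, 34 and 11 reads against 4, 8 and 1. The call of *Col6a1* was lost without any one library except KPF replicate 3. Its log2 fold change was 0.73 without KPF replicate 1, 0.92 without KPF replicate 2, 1.17 without WPF replicate 2, 1.02 without WPF replicate 3 and 1.00 without WPF replicate 4. *Col6a5* was 11.5-fold higher without WPF replicate 3 (log2 fold change 3.52) and 3.83-fold with the replicate block (1.94), where it was not called. *Col6a3* and *Col6a6* were positive but not called (log2 fold changes 0.67 and 0.75, adjusted p = 0.509 and adjusted p = 0.700 by edgeR), and *Col6a4* had 0 reads. *Col6a3* was called higher without WPF replicate 3 (log2 fold change 0.99). In KPF replicate 2, the library with striated muscle RNA, *Col6a2* was the highest of the 6 libraries. Without that library the log2 fold change of *Col6a2* was 1.56 and that of *Col6a5* was 2.56, and both were still called.

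The remaining families held 2 calls. *Col14a1*, whose product lies on the surface of type I fibrils, was at 6.20, 3.27 and 3.08 TMM-scaled FPKM in KPF and at 1.53, 1.85 and 2.24 in WPF. The groups did not overlap and the change was 2.23-fold (log2 fold change 1.16, SE 0.32, p = 0.00590 and adjusted p = 0.384 by edgeR, exact permutation p = 0.1). *Col23a1*, a collagen that spans the cell membrane, was at 1.26, 0.506 and 0.580 TMM-scaled FPKM in KPF and at 0.0617, 0.247 and 0.173 in WPF, or 4.76-fold higher without overlap (log2 fold change 2.25, SE 0.58, p = 0.00416 and adjusted p = 0.379 by edgeR, exact permutation p = 0.1). Both were still called without KPF replicate 2, with log2 fold changes of 1.30 and 2.48. Of the other tested genes, *Col7a1*, *Col9a3*, *Col12a1*, *Col13a1* and *Col20a1* had log2 fold changes between -0.62 and -0.11, *Col16a1* was at 0.47, and none was called. Without KPF replicate 2, *Col7a1*, which encodes the anchoring fibrils of skin, was called lower (log2 fold change -1.01). *Col20a1* was called lower without WPF replicate 4 (-1.04). The sum of the other collagens was lower in every KPF library, at 69.9, 62.8 and 65.0 against 96.7, 96.9 and 75.7 TMM-scaled FPKM, and *Col18a1* made up most of it. Of the 15 tested genes of these families 5 were called higher and 1 lower, with a median log2 fold change of 0.47.

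The untested genes among these families were *Col8a1*, *Col8a2*, *Col9a1*, *Col9a2*, *Col10a1*, *Col17a1*, *Col19a1*, *Col22a1*, *Col25a1*, *Col26a1*, *Col28a1* and *Col6a4*, with at most 18 reads in a library. *Col6a4*, *Col9a2* and *Col19a1* had 0 reads in every library, which allows up to 0.207 to 0.281 CPM, counting error only.

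**Figure D3:**
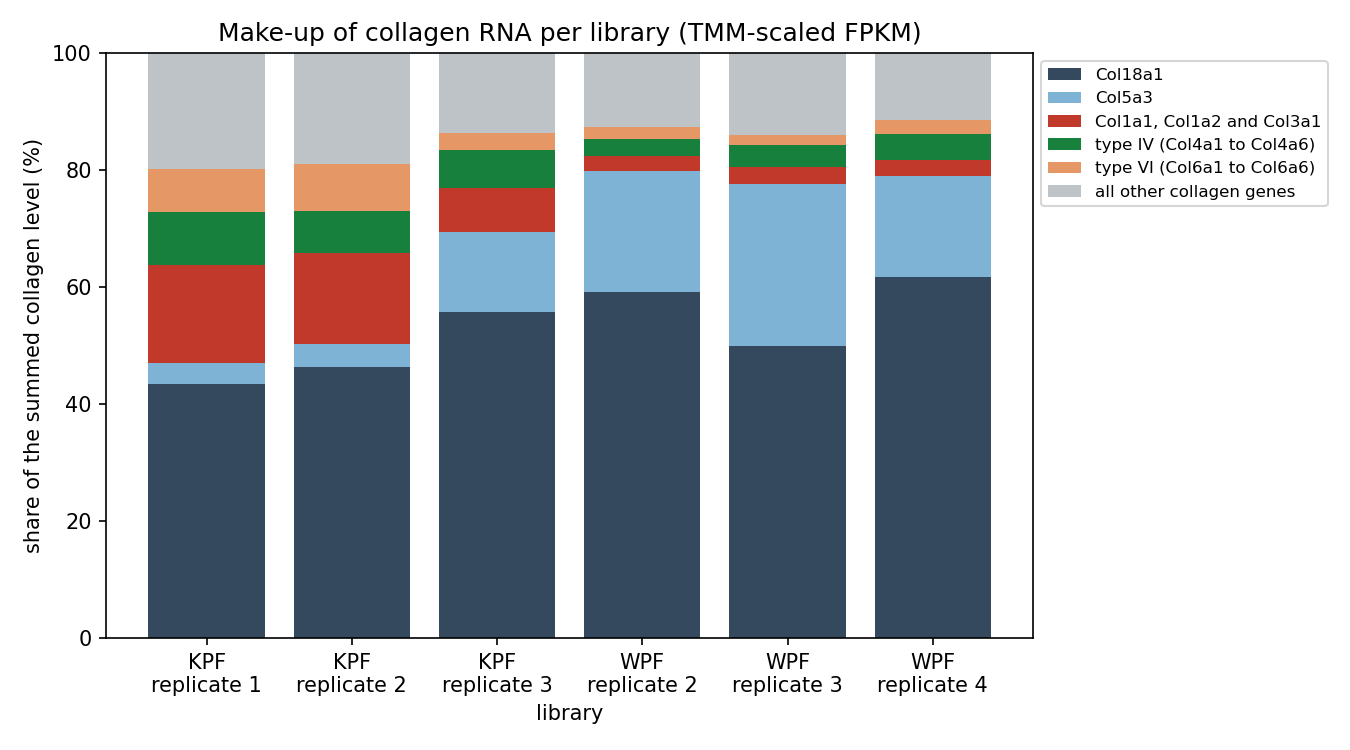
Share of the summed collagen level in each library, in percent of TMM-scaled FPKM, stacked as *Col18a1*, *Col5a3*, the genes of types I and III, type IV, type VI and all others. *Col18a1* is the largest share throughout, and *Col5a3* lies between 3.51% and 13.8% in KPF and between 17.1% and 27.6% in WPF, whereas types I and III lie between 7.48% and 16.7% in KPF and do not exceed 2.87% in WPF.

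Total collagen RNA did not separate the groups. As shares of that total, types I and III were higher and *Col5a3* was lower in every KPF library, whereas *Col18a1* (43.5%, 46.3% and 55.7% in KPF, 59.2%, 50% and 61.8% in WPF) and the fibrillar class (28.1%, 26.5% and 26.2%, then 28.6%, 36.4% and 25.0%) overlapped. The summed level was 111, 94.6 and 96.5 TMM-scaled FPKM in KPF and 141, 162 and 107 in WPF, and KPF replicate 1 lay above WPF replicate 4. The fibrillar sum was 31.3, 25.1 and 25.3 TMM-scaled FPKM in KPF and 40.4, 58.9 and 26.9 in WPF, so that the class with 3 genes called higher was not higher in sum, since *Col5a3* held most of the WPF sum. With *Col5a3*, *Col11a2* and *Col27a1* left out, the fibrillar sum was 21.8, 17.0 and 8.71 TMM-scaled FPKM in KPF and 4.71, 6.22 and 4.96 in WPF, without overlap. These 3 genes were left out after their values were seen.

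Genes that process collagen were examined from lists of pathway members, whose counts are to be read against the 5.62% of all genes called higher and the 4.05% called lower. For procollagen cleavage and crosslinking, 4 of 9 tested genes were called higher and 0 lower (median log2 fold change 0.62, all genes 0.02). *Pcolce*, which helps to trim the end of procollagen, was at 7.66, 7.46 and 6.04 TMM-scaled FPKM in KPF and at 4.42, 3.33 and 3.91 in WPF (adjusted p = 0.379 by edgeR). *Loxl1*, a crosslinking oxidase of elastic fibres, was 5.91-fold higher (adjusted p = 0.379 by edgeR) and *Adamts2*, which removes the other end of procollagen, was 2.29-fold higher (adjusted p = 0.441 by edgeR). The fold of *Loxl1* rests on few reads, 38, 58 and 12 in KPF and 6, 10 and 7 in WPF. For proteins that bind fibrils, 5 of 12 tested genes were called higher and 0 lower (median log2 fold change 0.89). *Sparc*, a collagen-binding matrix protein, was at 17.0, 15.4 and 9.06 TMM-scaled FPKM in KPF and at 7.07, 7.62 and 7.16 in WPF, or 1.9-fold higher (adjusted p = 0.393 by edgeR). *Fbn1*, the gene of fibrillin microfibrils, was 2.64-fold higher (adjusted p = 0.424 by edgeR), and *Prelp*, a small leucine-rich proteoglycan gene, was 2.04-fold higher (adjusted p = 0.430 by edgeR). In both lists the same numbers were called without KPF replicate 2.

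Of 14 tested genes of chain modification and folding, 1 was called higher and 1 lower, with a median log2 fold change of 0.07. *Serpinh1*, the collagen-specific chaperone of the endoplasmic reticulum, was 2.05-fold higher at 11.0, 8.50 and 4.82 TMM-scaled FPKM in KPF and 3.11, 5.33 and 3.42 in WPF, with overlap (adjusted p = 0.432 by edgeR). *Colgalt1*, which adds galactose to collagen hydroxylysine, was at 1.41, 1.85 and 2.02 TMM-scaled FPKM in KPF and at 2.82, 2.78 and 5.51 in WPF, or 0.475 of WPF (adjusted p = 0.424 by edgeR). Among partners of the basement membrane, 2 of 14 tested genes were called higher and 1 lower (median 0.49, log2 fold change), and without KPF replicate 2 they were 3 and 0. The laminin genes *Lama2* and *Lamb1* were 4.33-fold and 1.94-fold higher (adjusted p = 0.375 and adjusted p = 0.408 by edgeR). The fold of *Lama2* rests on few reads, 14, 30 and 21 in KPF and 6, 6 and 7 in WPF. *Nid2*, which encodes a nidogen that links laminin to type IV collagen, was at 0.800, 0.544 and 1.60 TMM-scaled FPKM in KPF and at 4.08, 4.01 and 0.994 in WPF, or 0.325 of WPF (adjusted p = 0.454 by edgeR), with WPF replicate 4 among the KPF values.

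Of 8 tested genes of collagen breakdown, 2 were called higher and 0 lower (median log2 fold change 0.46), and without KPF replicate 2 it was 1. *Mrc2*, an uptake receptor for collagen fragments, was 4.23-fold higher (adjusted p = 0.379 by edgeR) and *Timp2*, an inhibitor of matrix metalloproteinases, was 2.04-fold higher (adjusted p = 0.473 by edgeR). *Mrc2* had 55, 59 and 21 reads in KPF and 9, 19 and 13 in WPF. Of 6 tested collagen receptor genes none was called (median log2 fold change 0.01). In TGF-beta signalling, the pathway best known for inducing fibrillar collagen, 1 of 12 tested genes was called higher and 1 lower (median log2 fold change 0.37). *Ltbp1*, which holds latent TGF-beta in the matrix, was 3.08-fold higher (adjusted p = 0.392 by edgeR), and *Tgfbr1*, which encodes a TGF-beta receptor, was at 0.646 of WPF (adjusted p = 0.469 by edgeR). Without KPF replicate 2 the list had 1 gene called higher and 0 lower.

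Among the summed marker lists of cell types, only those of portal fibroblasts and adipocytes separated the groups, as types I and III collagen did. Both sums were highest in KPF replicate 2, whereas types I and III were highest in KPF replicate 1. The 10 portal fibroblast markers summed to 32.0, 46.5 and 8.50 TMM-scaled FPKM in KPF and to 6.07, 5.62 and 6.43 in WPF. The 3 KPF libraries were above the 3 WPF libraries, KPF replicate 3 was again the lowest of its group, and 5 of the 6 tested markers were called higher and 0 lower. *Gsn* and *Dpt* had the highest mean levels of this list. *Dpt*, the dermatopontin gene of fibroblasts, was at 13.2, 11.3 and 3.53 TMM-scaled FPKM in KPF and at 1.44, 1.35 and 1.73 in WPF, or 6.18-fold higher. *Entpd2*, the tested marker that was not called, went the other way, at 0.796, 0.909 and 0.179 in KPF and at 1.70, 1.06 and 0.824 in WPF. Hepatic stellate cell markers summed to 193, 247 and 90.0 TMM-scaled FPKM in KPF and to 114, 99.1 and 93.4 in WPF, with overlap, and 2 of 14 were called higher, *Reln* and *Des*. *Des* is also a muscle gene and was at 129 TMM-scaled FPKM in KPF replicate 2. The median log2 fold change of the stellate list was 0.52, and *Lrat* was its only marker with a negative one (-0.38). *Lrat*, which marks stellate cells by their vitamin A storage, was at 1.09, 0.986 and 0.817 in KPF and at 1.24, 1.71 and 0.830 in WPF.

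Adipocyte markers summed to 7.40, 22.7 and 2.30 TMM-scaled FPKM in KPF and to 0.429, 0.772 and 0.831 in WPF, so that the groups did not overlap. *Lep* was at 0 in all libraries, *Adipoq* was at 0.204, 0.892 and 0 in KPF and at 0, 0.154 and 0 in WPF, and *Cfd*, which adipocytes secrete in bulk, was at 4.49, 18.6 and 1.34 in KPF and at 0, 0.154 and 0 in WPF, all in TMM-scaled FPKM. Mesothelium markers, which cover the liver surface, summed to 6.37, 7.0 and 2.01 TMM-scaled FPKM in KPF and to 1.40, 3.18 and 1.18 in WPF, with 1 of 2 tested genes called higher and with *Wt1*, *Lrrn4* and *Upk1b* at 0 in some libraries. Smooth muscle markers summed to 49.7, 21.0 and 11.0 in KPF and to 14.4, 18.6 and 11.4 in WPF, with 1 of 5 tested genes called higher. By contrast, 0 of 11 sinusoidal endothelial markers were called, and their sums of 51.8, 39.5 and 38.4 in KPF and 37.5, 42.6 and 38.7 in WPF overlapped, as did those of cholangiocytes (0 of 6 tested genes called, 26.9 to 33.9 against 26.7 to 42.3), Kupffer cells (1 of 9 called lower, 102 to 141 against 101 to 212) and hepatocytes (1 of 9 called lower, 38700 to 50500 against 50300 to 85800). The median log2 fold change of the 9 hepatocyte markers was -0.11. *Alb* was lower in every KPF library (27400, 28900 and 38100, then 65000, 39300 and 38100 in WPF), although KPF replicate 3 and WPF replicate 4 were all but equal. *Trf* was also lower in every KPF library (1990, 1820 and 1670, then 3500, 2180 and 2670). *Ttr* was called lower at 0.495 of WPF, with overlap. *Apob*, *Cps1* and *Fgb* were at 0.942, 0.924 and 0.819 of WPF, whereas *Hnf4a*, *Tat* and *Apoa1* were at 1.15, 1.21 and 1.05 of WPF. The counts of called markers of all these lists, too, stand against 5.62% of all genes called higher and 4.05% called lower. The part of any of these cell types in the collagen values was not tested. Without KPF replicate 2, the library with striated muscle RNA, the 3 genes of types I and III were still called. The calls of marker genes were not repeated without it. KPF replicate 2 was the highest library for *Gsn* (21.4), *Cd34* (0.977) and *Cfd* (18.6), in TMM-scaled FPKM.

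**Figure D4:**
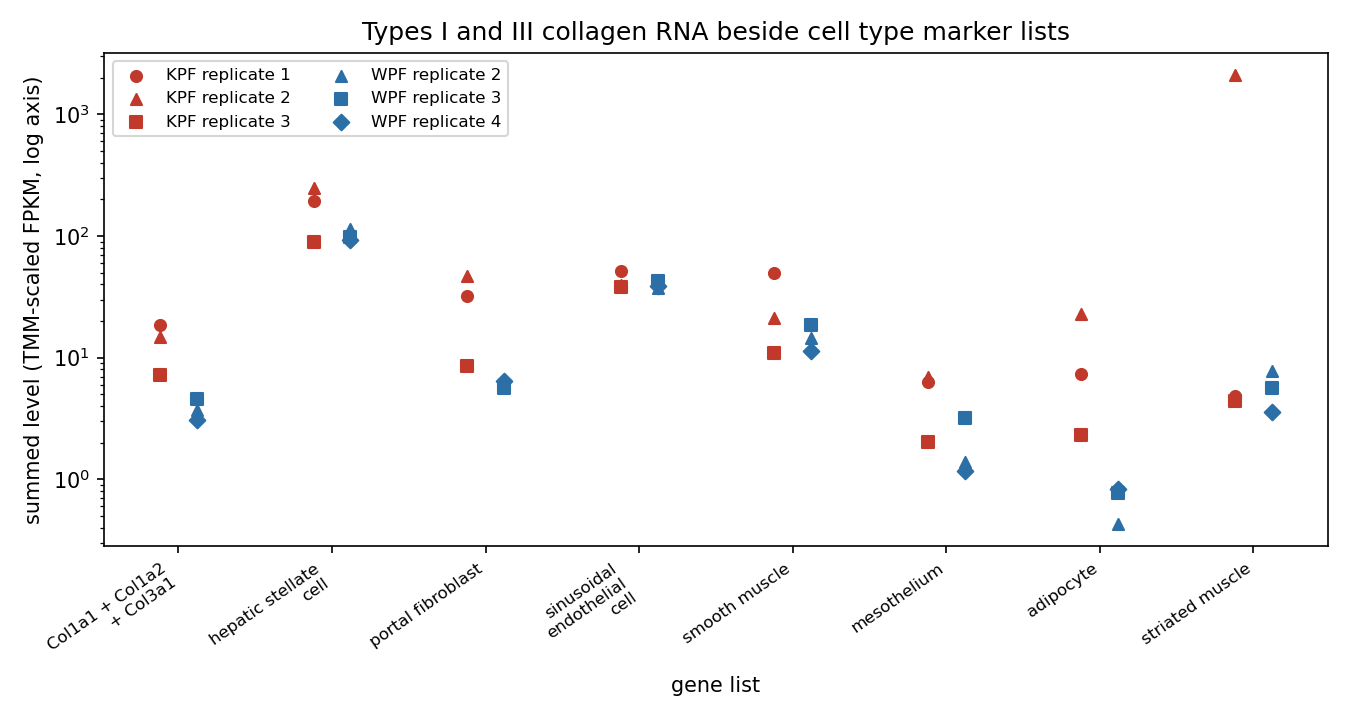
Summed level per library, in TMM-scaled FPKM on a log axis, of *Col1a1*, *Col1a2* and *Col3a1* and of 7 marker lists, with KPF in red and WPF in blue. For types I and III collagen, portal fibroblasts and adipocytes all 3 KPF libraries lie above the WPF libraries, with KPF replicate 3 nearest to them. Sinusoidal endothelial markers overlap, and the striated muscle sum of 2090 is that of KPF replicate 2.

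KPF replicate 3, which had the lowest types I and III collagen RNA of its group (7.21 against 18.6 and 14.8 TMM-scaled FPKM), also had the highest *Col5a3* of its group (13.3) and the highest *Mlxipl* (152). In KPF replicates 1 and 2 *Mlxipl* was at 32.0 and 126, whereas *Col5a3* was at 3.91 and 3.69, so the order of the 3 libraries differed between these genes. Since the order of 3 libraries carries no test, these are given as values.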

How the data were processed

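The samples were livers of 3 KPF and 3 WPF dams. Read counts per gene and FPKM values were deposited by the authors in one table, where FPKM is the count scaled by exonic length and library total, rounded to 2 decimals. The exonic lengths are those the authors give. The submitters' processing notes name cutadapt 1.9.1, HISAT2 2.2.1, HTSeq 0.6.1, DESeq2 and GRCm39, with no role or order.

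Gene IDs were matched to symbols by the Ensembl ID (52073 of 56691 matched, 4618 did not). Counts were fitted with edgeR 4.0.16 (R 4.3.3; TMM, filterByExpr with a minimum count of 10, quasi-likelihood test), and p-values were Benjamini-Hochberg adjusted over 13884 genes. Levels shown are TMM-scaled FPKM computed from the counts. limma 3.58.1 on log2(FPKM + 1) and log2(FPKM + 0.1), DESeq2 1.42.0, other filters and scalings, leaving out each library and the replicate number as a block were alternatives. The count-based filter was used because long transcripts with low FPKM still hold many reads. The tests were tried on simulated counts.

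Values per library are given for the called collagen genes, for the 3 with the highest mean level of each class and for *Col15a1*. For pathway lists the called genes are given, at most the 3 with the smallest p. The members and gene lists were chosen with earlier results of these data known. Within a group no pair of libraries was alike within sampling noise (chi-square per gene at least 40.2). Promoter sequences are RefSeq windows on GRCm38.p6, of which only the bases before the start are shown.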

Additional observations from a re-analysis of the deposited data

How the results depend on the processing

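*Col5a3*, *Col3a1*, *Col1a2*, *Col1a1* and *Col14a1* were called in the same direction under all 14 alternatives, and *Col6a2* under all 13 in which it was tested. These alternatives were read for collagen genes. Pathway lists were read again only without KPF replicate 2, and marker lists under no alternative. None of the 17 collagen genes that were called or among the 3 highest of their class changed sign under any alternative. *Col13a1* and *Col9a3*, which were not called, did so under 3 and 2 of 13. An adjusted p under 0.05 was reached by 5 collagen genes with no filter on low counts, where 286 of 26984 genes reached it. It was reached by 7 with DESeq2, where 165 of 13884 genes did so, and by 0 under each other alternative. With a mean FPKM of at least 1 only 13 collagen genes were tested and 5 were called higher, against 634 of 10866 genes. With limma on log2(FPKM + 1), which shrinks low genes, 5 of 28 were called higher, against 248 of 13884 genes. Leaving out each library gave 7 to 10 called higher and 1 to 5 called lower, with the lowest number of lower calls without WPF replicate 2 and the highest without WPF replicate 4. Over all genes these fits called 503 to 1218 higher and 332 to 1002 lower, of 14175 to 14563 tested.

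The median log2 fold change of the fibrillar class, 0.69, was 1.10 with a mean FPKM of at least 1 and 0.26 with limma on log2(FPKM + 1). That of the basement membrane class, 0.67, was 0.87 with no filter, 0.28 with limma on log2(FPKM + 1) and 0.27 with the replicate block, and that of the other collagens, 0.47, was -0.58, 0.056 and 0.17 with a mean FPKM of at least 1, limma on log2(FPKM + 1) and the block. Without each library in turn the medians lay between 0.34 and 0.99, 0.28 and 0.86, and 0.074 and 0.69, in the same order of classes. The cause of these shifts was not tested, except that fewer genes were tested under the FPKM minimum.

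With library totals in place of TMM, 8 collagen genes were called higher and 3 lower, against 452 and 817 of 13884 genes. The median of all genes moved from 0.02 to -0.09 and the share of all calls that were higher from 58.1% to 35.6%. That share was 30.8% with limma on log2(FPKM + 1) and 33.7% on log2(FPKM + 0.1). Replicate numbers 2 and 3 occur in both groups, and same-numbered libraries did not deviate together (correlations 0.035 and -0.063). With only 2 such pairs, of which 1 holds KPF replicate 2, this cannot show whether the numbers pair the dams. With the replicate number as a block, 9 collagen genes were called higher and 4 lower, against 792 and 689 of 13884 genes. The folds of that fit rest on replicates 2 and 3, since KPF replicate 1 and WPF replicate 4 stand alone in their blocks. KPF replicate 2 is the library with striated muscle RNA. In that fit *Col18a1*, *Col6a1* and *Col6a5* were not called, *Col5a2* was called higher (log2 fold change 1.03), and *Col27a1* and *Col20a1* were called lower (-0.89 and -1.01). Genes with few reads, such as *Col4a3*, *Col4a4*, *Col6a5*, *Lama2* and *Loxl1*, are limited by depth.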
